A study of Mus musculus with 24 samples.

Results

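The cadherins and protocadherins were followed across the hippocampal mRNA arrays of neonatal mice. Members were all non-control probesets whose gene name on the array was Cdh or Pcdh with a number, or a clustered protocadherin name of the alpha, beta or gamma type. This gave 90 probesets of 71 genes, out of 55681 non-control probesets. They comprised 8 probesets of 5 type I cadherin genes, 15 of 13 type II cadherin genes, 6 of 6 other Cdh genes, 9 of 4 delta-1, 6 of 5 delta-2 and 8 of 3 other non-clustered protocadherin genes, and 38 of 35 clustered protocadherin genes.

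All animals were male C57BL/6 pups by their labels, killed at P9, and each array held RNA pooled from both hippocampi of 1 pup. Control pups (Con, 5 arrays) were untreated. Pups of the MS2 group (5 arrays) and the MS5 group (5 arrays) were treated from P5 with morphine at 2 mg/kg or 5 mg/kg, respectively. Both of these groups were also separated from the dam in a warmed chamber (32°C) and exposed each day to apneic stress, with 1 min of nitrogen and then 5 min of oxygen. No group had stress without morphine here, so morphine and stress cannot be told apart in comparisons with Con. In whole hippocampal RNA, fewer cells of a type and less RNA per cell cannot be told apart either.

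Cadherins are calcium-dependent adhesion molecules that join the membranes of neighboring cells, and the classical types bind catenins, which link them to the actin cytoskeleton. Type I cadherins (such as Cdh2, N-cadherin) and type II cadherins (such as Cdh7 and Cdh9) take part in sorting neurons and in forming synapses, and different brain regions and nuclei carry different sets of them. Protocadherins lack the catenin-binding tail of the classical types. The clustered protocadherins are made from alpha, beta and gamma gene clusters and give single neurons distinct surface identities, whereas the non-clustered delta types are expressed by region.

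The arrays read each gene through a 60-base probe. The first 30 bases are given, 5′ to 3′ as deposited and in lower case, for the probes behind the members that stood out most, with their positions on build mm9. Cdh7 (chr1:112035318-112035377) and Cdh3 (chr8:109079933-109079992) carried the largest changes in the MS5 group. Cdh22 (chr2:164937057-164937116) and Pcdh20 (chr14:88865889-88865948) were among the members farthest from the controls on a single MS2 array. Cdh5 (chr8:106668159-106668218) is the cadherin of blood vessel endothelium.
Cdh7: cacctggatctaactttcatggtaccctct
Cdh3: tattttccctgttatgtgctgtagatggag
Cdh22: aacagcacctacctcgaagatttgagagga
Pcdh20: atatcttagtgcactcttcgctggtcagca
Cdh5: acttattataagactctagttctcacagac

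The probes for the type II cadherins Cdh6 (chr15:12963981-12964040) and Cdh9 (chr15:16785915-16785974) read much the same stretch of these related genes. Set base against base, they were equal at 24 of the first 30 positions and at 50 of 60 in all. They are shown with the equal bases in capitals, because these similar probes moved in opposite directions on 1 array.
Cdh6: ATTATGAcTAttTgAGtGACTGGGGcCCTC
Cdh9: ATTATGAtTAccTtAGcGACTGGGGaCCTC

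Most members were measured well. Of the 90 probesets, 79 (87.8%) were well above background on all 15 arrays, compared with 65.2% of all probesets. Cdh17 was well above background on 0 arrays and Cdh23 (a stereocilia tip-link cadherin) on 4, so no change is given for them by name, although they are among the 90 in the counts and medians. Cdh29 (8 arrays), Cdh19 (9 arrays) and 1 of 6 Pcdh15 probesets (8 arrays) lay near background as well. By their listed transcripts, 34 of the 38 clustered probesets belonged to 1 clustered protocadherin. The other 4, which were 1 Pcdha8, 1 Pcdhac2 and both Pcdhga9 probesets, listed transcripts of several and cannot be assigned to 1 gene.

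Some arrays stood apart and touch the results that follow. On MS2 replicate 4, most markers of hypothalamus and thalamus were high relative to the control mean. They included Pmch (+6.96, log2) and Hcrt (+4.26), neuropeptides of the lateral hypothalamus, and Lhx9 (+2.56). Not all of that list rose there, with Nkx2-1 at -0.55, Pomc at -0.02, Otp at -0.02, Six6 at +0.08 and Agrp at +0.27. The hippocampal neuron genes Neurod6 (-3.66) and Zbtb20 (-2.17) were low on this array. On MS5 replicates 9 and 14, choroid plexus markers were low, with Ttr, the transthyretin gene, at -2.02 and -5.11. On MS5 replicate 9 the X-inactivation transcript Xist was at +5.37 and the Y-linked Ddx3y at -5.04 relative to the control mean, against the male label. Median spot signal was 58.2 on MS2 replicate 5 and 121 to 154 on the other 14 arrays. The arrays lay on 2 slides, each of which held all 3 groups. Slide 1 held 3 Con, 3 MS2 and 2 MS5 arrays, and slide 2 held 2 Con, 2 MS2 and 3 MS5 arrays.

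The limma fit compared the 3 groups over all probesets, and a member was called when it changed by more than 1.5-fold and its p before adjustment was below 0.05. In MS2 versus Con, 0 of 90 members were called, where 0.0233% of all probesets were. In MS5 versus Con, 1 member was called (Cdh3), where 0.228% of all probesets were, and in MS5 versus MS2, 1 member was called (Cdh3 again), where 0.129% were. The 2 comparisons that called Cdh3 share the MS5 arrays. After Benjamini-Hochberg adjustment over all 55681 probesets (limma), the lowest adjusted p of a member was 0.97 in MS2 versus Con and rounded to 1 in the other comparisons.

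At an unadjusted p under 0.05 alone, 3 members were higher and 1 lower in MS2 than in Con, where 2.05% and 2.12% of all probesets were. In MS5 versus Con, 5 members were higher and 3 lower, against 1.47% and 2.44% of all probesets. In MS5 versus MS2, 1 was higher and 2 were lower, against 1.72% and 2.26%. The median change of the 90 members was 0.06 (log2) in both comparisons with Con and 0.00 in MS5 versus MS2, and the median of all probesets was 0.00 in each. The standard error of a member's change had a median of 0.11 and ranged from 0.04 to 0.38.

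**Figure D1:**
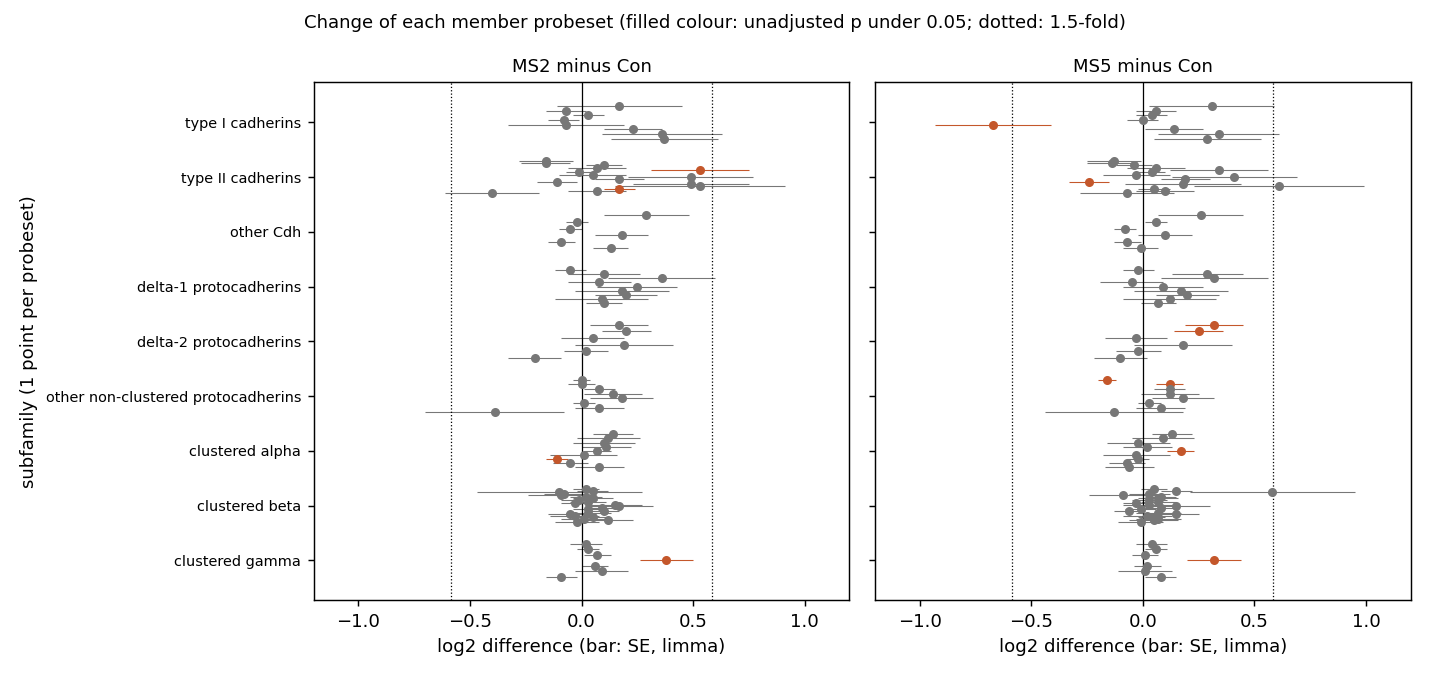
Change of each of the 90 member probesets (log2 difference, x axis, with its SE from limma) in MS2 minus Con and MS5 minus Con, by subfamily. Orange points have an unadjusted p under 0.05 and dotted lines mark 1.5-fold; Cdh3 is the only orange point beyond a dotted line, at -0.67 in MS5 minus Con.

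Cdh7, a type II cadherin of neurons, had the largest rise among the members in MS5 versus Con, but its change did not pass the test. Its log2 signal was 8.56, 7.75, 8.67, 8.54 and 8.80 on the Con arrays, 8.57, 8.22, 10.78, 8.58 and 8.83 on the MS2 arrays, and 9.27, 9.20, 8.60, 9.34 and 8.95 on the MS5 arrays. Of the MS5 arrays 4 lay above every control array and 1 lay among them, while the MS2 arrays were within the control range except for a high value on replicate 4 and a marginally higher one on replicate 7. The difference was 0.61 ± 0.38 (SE, n = 5 per group, limma p = 0.131, exact two-sided permutation p = 0.0238) in MS5 versus Con, with a 95% interval from -0.20 to 1.42. For MS2 against Con it was 0.53 ± 0.38 (limma p = 0.182, exact permutation p = 0.389).

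The estimate of the spread of Cdh7 rested on MS2 replicate 4. Without that array, the MS5 change was 0.61 ± 0.19 and passed the threshold, the MS2 change was 0.09 ± 0.20, and MS5 exceeded MS2 by 0.52 ± 0.20. Within slide 1 the MS5 change of Cdh7 was 0.72 ± 0.15, which passed the threshold, and within slide 2 it was 0.64 ± 0.65, which did not. Slide 2 held both MS2 replicate 4 and Con replicate 16, the lowest control array of Cdh7 (7.75). The summed level of the 15 hypothalamus and thalamus markers was also highest on MS2 replicate 4. It was 12.64 to 12.91 (log2) on the Con arrays, 15.48 on MS2 replicate 4 and 12.67 to 12.78 on the other MS2 arrays, and 12.73 to 14.07 on the MS5 arrays. On MS5 replicates 8, 9, 12, 13 and 14, Cdh7 was at 9.27, 9.20, 8.60, 9.34 and 8.95. The summed markers were at 14.07, 12.73, 13.72, 13.16 and 13.64 on the same arrays. Relative to the control mean, Avp was at +3.48 to +5.16 and Oxt at +2.36 to +4.08 on MS5 replicates 8, 12 and 14. On MS5 replicates 9 and 13, Avp was at -0.11 and -0.55 and Oxt at -0.13 and -0.26. On MS5 replicates 8, 9, 12, 13 and 14, Trh was at +3.04, +0.79, +0.90, +1.89 and +2.82. Trh was also at +2.42 on Con replicate 19. Gbx2, well above background on 11 arrays, was at +1.39, -0.08, +0.65, +1.36 and +1.26 on those MS5 arrays. Lef1 was at +1.17, +0.12, +0.12, +0.58 and -0.30. The median difference over the 15 markers was -0.08 to 0.34 on the MS5 arrays and 1.70 on MS2 replicate 4. Hcrt was at -0.07 to 0.13 on the MS5 arrays, and Otp and Six6 were well above background on 0 arrays. The part of these markers in the Cdh7 result was not tested.

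The probesets with a pattern most like Cdh7 over the 15 arrays, among 36280 that were well above background on every array, were Ptchd1 (Pearson r = 0.967), both probesets of the urea-cycle gene Ass1 (0.968 and 0.961), and the transcripts A230055C15 (0.967) and ENSMUST00000086681 (0.976). Each of these was also high on MS2 replicate 4, by 1.09 to 1.68 (log2) over the control mean. Without that array their correlations with Cdh7 over 14 arrays were 0.904 to 0.935. These 14 arrays were among the 15 by which the probesets were picked, so the values are no independent check.

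Cdh3, the type I P-cadherin, was lower in MS5 than in both other groups. Its log2 signal was 7.28, 7.91, 7.73, 7.57 and 7.70 on the Con arrays, 7.73, 7.83, 7.51, 7.58 and 7.18 on the MS2 arrays, and 7.46, 6.43, 7.64, 7.26 and 6.06 on the MS5 arrays. Replicates 9 and 14 of MS5 were the low ones, and of the other 3 MS5 arrays 2 lay among the controls and 1 (7.26) just under them. The change was -0.67 ± 0.26 (limma p = 0.0201, a ratio of 0.629), with an exact permutation p of 0.0635. On MS5 replicate 14, the lowest array (6.06), Cdh3 was not well above background, so its level there and the size of the change are uncertain. Versus MS2 it was -0.60 ± 0.26 (limma p = 0.0344, exact permutation p = 0.119), and with the slide as a block it was -0.57 ± 0.27, which fell short of 1.5-fold and ended the call. MS2 and Con differed by -0.07 ± 0.26 (limma p = 0.786, exact permutation p = 0.659). The size depended on the scaling, at -1.39 ± 0.61 with the scanner's processed signal and -1.19 ± 0.48 with a background offset of 0.

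The call rested on those 2 arrays. The change of Cdh3 in MS5 versus Con was -0.53 ± 0.26 without replicate 9 and -0.44 ± 0.21 without replicate 14, and neither passed the threshold. It was -1.10 ± 0.44 on the slide that held both of them and -0.17 ± 0.20 on the other. The same arrays were low in choroid plexus markers, whose summed level was 18.07 to 18.69 (log2) on the Con arrays, 18.18 to 18.55 on the MS2 arrays, and 16.42 and 14.42 on MS5 replicates 9 and 14 against 17.87 to 18.38 on the other MS5 arrays. Of the 14 markers, all measured on every array, 12 were lower in MS5 than in Con past the 1.5-fold threshold and 0 were higher. Of all probesets, 0.228% were called in either direction. The paper had already reported several of these markers as lower in MS5 on the same arrays, among them Aqp1, Calml4, Cldn2, Folr1, Slc4a5 and Kl. The count is therefore no independent support. The part of these markers in the fall of Cdh3 was not tested.

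**Figure D2:**
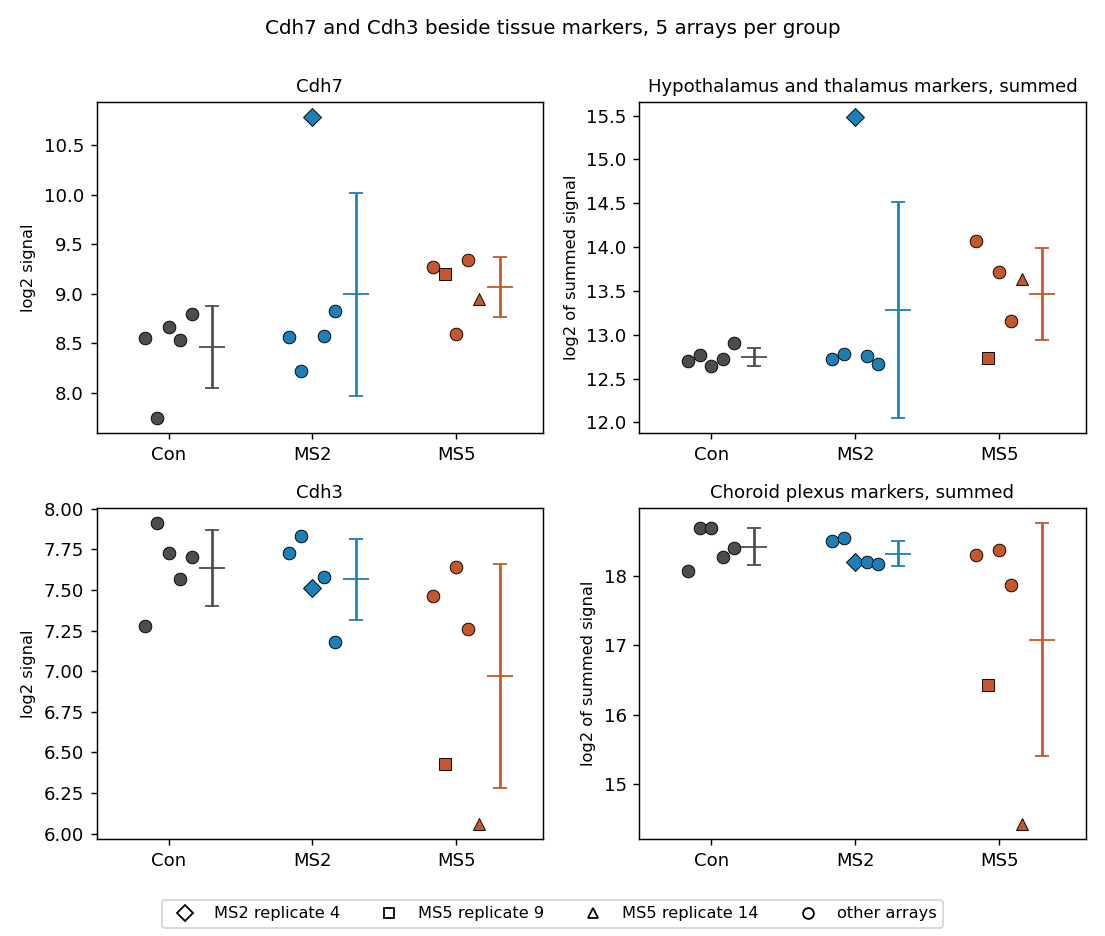
Log2 signal of Cdh7 and Cdh3 on each array (left) beside the log2 summed signal of the hypothalamus and thalamus markers and of the choroid plexus markers (right), with group mean and SD (n = 5). MS2 replicate 4 is high for Cdh7 (10.78) and for the hypothalamus and thalamus markers (15.48), and MS5 replicates 9 and 14 are low for Cdh3 (6.43 and 6.06) and for choroid plexus.

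Of the remaining type I cadherins, none passed a limma p under 0.05 in any comparison. Cdh2 (N-cadherin), the main classical cadherin of neurons, changed by 0.00 ± 0.07 and 0.04 in MS5 versus Con at its 2 probesets, and by -0.08 ± 0.07 in MS2 at the brighter one. Cdh1 (E-cadherin) spanned a wide range among the controls themselves, from 0.90 below to 0.69 above their mean, and its MS5 change was 0.31 ± 0.28 (limma p = 0.288, exact permutation p = 0.405). The lowest control value, on Con replicate 19, was not well above background, and 2 of its spots were marked as outliers by the scanner software. Cdh4 (R-cadherin) is read by 3 probesets, and all were 0.14 to 0.34 higher in MS5 than in Con, with exact permutation p from 0.0476 to 0.214. On MS2 replicate 4 the same 3 were 0.82 to 1.65 above the control mean, against -0.09 to 0.20 on the other MS2 arrays.

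Among the type II cadherins, Cdh5 (VE-cadherin) was lower in MS5 than in Con. Its log2 signal was 9.67, 9.64, 9.62, 9.82 and 9.48 on the Con arrays and 9.17, 9.54, 9.55, 9.49 and 9.26 on the MS5 arrays. The ranges overlapped, with 2 MS5 arrays below every control array. The change was -0.24 ± 0.09 (limma p = 0.0169, exact permutation p = 0.0317), and within the slides it was -0.38 ± 0.11 and -0.11 ± 0.12. Of 9 markers of the meninges, 0 passed a limma p under 0.05 in MS5 versus Con, although all 9 were lower (median -0.20). Their median difference from the control mean was lowest on Con replicate 19 (-0.85) and MS5 replicates 8 (-0.70) and 14 (-0.55), which were also the lowest arrays of Cdh5 in their groups. Their part in the Cdh5 result was not tested. The limma p of Cdh5 was no longer under 0.05 without Con replicate 18 (-0.20) or MS5 replicate 8 (-0.19). In MS2 it was -0.11 ± 0.09 (limma p = 0.228, exact permutation p = 0.238).

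Cdh18 was higher in MS2 than in Con by 0.53 ± 0.22 (limma p = 0.0307, exact permutation p = 0.0397). Its values were 7.52, 6.97, 7.51, 7.25 and 7.38 on the Con arrays and 7.61, 7.42, 8.86, 7.82 and 7.56 on the MS2 arrays, so 4 of 5 MS2 arrays were above every control array. Without MS2 replicate 4 the change of Cdh18 was 0.28 ± 0.13. In MS5 it was 0.34 ± 0.22 (limma p = 0.145, exact permutation p = 0.0397). A probeset of Cdh8 was also higher in MS2, by 0.17 ± 0.07 (limma p = 0.0314, exact permutation p = 0.0317), whereas the brighter Cdh8 probeset differed by 0.07 ± 0.13.

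The other neuronal type II cadherins did not pass a limma p under 0.05 in the fit of all arrays. Cdh9, known from synapses between dentate granule cells and CA3 neurons, changed by -0.40 ± 0.21 in MS2 (limma p = 0.0782, exact permutation p = 0.198) and -0.07 ± 0.21 in MS5. Cdh22 was at 0.49 ± 0.28 in MS2 (exact permutation p = 0.198) and 0.41 ± 0.28 in MS5 (exact permutation p = 0.0476, limma p = 0.161). Cdh6 was at 0.49 ± 0.26 and 0.18 ± 0.26. Cdh10 and the brighter probeset of Cdh11 were between -0.16 and -0.13 in both groups. All 5 MS5 arrays of Cdh24 (6.45 to 6.64) lay above all 5 Con arrays (6.24 to 6.43), and the difference was 0.19 ± 0.11 (limma p = 0.109, exact permutation p = 0.00794). The signal of Cdh24 lay near background, and on MS2 replicate 5 (6.33) it was not well above it. Of the 90 members, 2 had MS5 and Con arrays that did not overlap, Cdh24 and Pcdh12, where 0.832% of all probesets did. Between MS2 and Con 0 members did (0.699% of all probesets), and in MS5 versus MS2 1 did (Pcdh12, 0.625% of all probesets).

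Pcdh12, a protocadherin of vascular endothelium, was lower in MS5 than in both other groups by a small amount. Its log2 signal was 9.92, 10.04, 10.00, 10.04 and 10.01 on the Con arrays, 9.96, 10.05, 9.95, 10.08 and 9.96 on the MS2 arrays, and 9.90, 9.85, 9.91, 9.86 and 9.71 on the MS5 arrays. All MS5 arrays lay below all arrays of the other groups. The change was -0.16 ± 0.04 versus Con (limma p = 0.00342) and -0.15 ± 0.04 versus MS2 (limma p = 0.00394), and both exact permutation p were 0.00794, the smallest that 5 against 5 arrays can give. This is a ratio of 0.897, well short of 1.5-fold. Leaving out each array in turn gave -0.18 to -0.12 versus Con, each with p under 0.05, and within the slides it was -0.11 ± 0.06 and -0.20 ± 0.08, of which the former did not pass.

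The 8 endothelial markers moved in both directions. Between MS5 and Con, Tie1 was lower by p under 0.05 (-0.15 ± 0.05), Kdr was higher (0.23 ± 0.11) and 6 did not pass, among them Cldn5 (-0.06 ± 0.06) and Pecam1 (0.02 ± 0.06). Their summed level was 15.00 to 15.17 (log2) on the Con arrays and 15.03 to 15.14 on the MS5 arrays.

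Pcdh10, a delta-2 protocadherin, was higher in MS5 than in Con at both of its probesets, which lie at separate places of the gene (chr3:45196739-45203246, a listed span longer than the probe, and chr3:45186832-45186891). At the first the log2 signal was 12.91, 12.76, 12.90, 12.98 and 13.12 on the Con arrays and 13.56, 13.18, 13.01, 13.14 and 13.35 on the MS5 arrays. At the second it was 10.24, 9.93, 10.12, 10.33 and 10.39 on the Con arrays and 10.51, 10.43, 10.48, 10.27 and 10.54 on the MS5 arrays. In each case 4 of 5 MS5 arrays were above every control array. The changes were 0.32 ± 0.13 (limma p = 0.0299, exact permutation p = 0.0159) and 0.25 ± 0.11 (limma p = 0.0411, exact permutation p = 0.0317). At the first, the limma p was no longer under 0.05 without Con replicate 15, 16 or 17 or MS5 replicate 8 or 14, with changes of 0.24 to 0.31, and within the slides the change was 0.42 ± 0.11 and 0.24 ± 0.22. In MS2 they were 0.17 ± 0.13 and 0.20 ± 0.11, and MS5 minus MS2 was 0.14 ± 0.13 and 0.05 ± 0.11, which did not pass the test.

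The remaining delta protocadherins did not pass a limma p under 0.05 in any comparison. Pcdh8 (arcadlin), an activity-regulated protocadherin of synapses, changed by -0.10 ± 0.12 in MS5 and -0.21 ± 0.12 in MS2. Pcdh17 and Pcdh19 were at -0.03 ± 0.14 and -0.02 ± 0.10 in MS5. Pcdh18 was at 0.18 ± 0.22 in MS5 (limma p = 0.43, exact permutation p = 0.0476). Pcdh9 was 0.07 to 0.20 higher in MS5 at its 3 probesets, and the exact permutation p was 0.0317 at the brightest (limma p = 0.177). Between MS5 and Con, Pcdh7 ranged from -0.05 to 0.17 at its 3 probesets. Pcdh11x, which like Pcdh19 lies on the X chromosome, was at 0.29 ± 0.16 and 0.32 ± 0.24. On MS5 replicate 9, the array whose sex markers went against the label, these 3 X-linked probesets were -0.07 to 0.16 from the control mean. Without it the MS5 changes were 0.33 and 0.41 for Pcdh11x and -0.06 for Pcdh19.

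Pcdh20 and Pcdh15 make up the other non-clustered group with Pcdh12. Pcdh20 was at -0.39 ± 0.31 in MS2 and -0.13 ± 0.31 in MS5, with 11.06 on MS2 replicate 4 against 12.45 to 13.13 on the other MS2 arrays. The 6 probesets of Pcdh15 (a partner of Cdh23 in hair cells) were 0.03 to 0.18 higher in MS5, and 1 that lay near background passed a p under 0.05 (0.12 ± 0.06, limma p = 0.0478, exact permutation p = 0.0635). For 10 of the 12 genes with more than 1 probeset, the rounded MS5 changes had 1 sign at all of them. The exceptions were Pcdh7 (-0.05 to 0.17) and Cdh2, where 1 probeset rounded to 0.00 and so counted as having no sign.

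**Figure D3:**
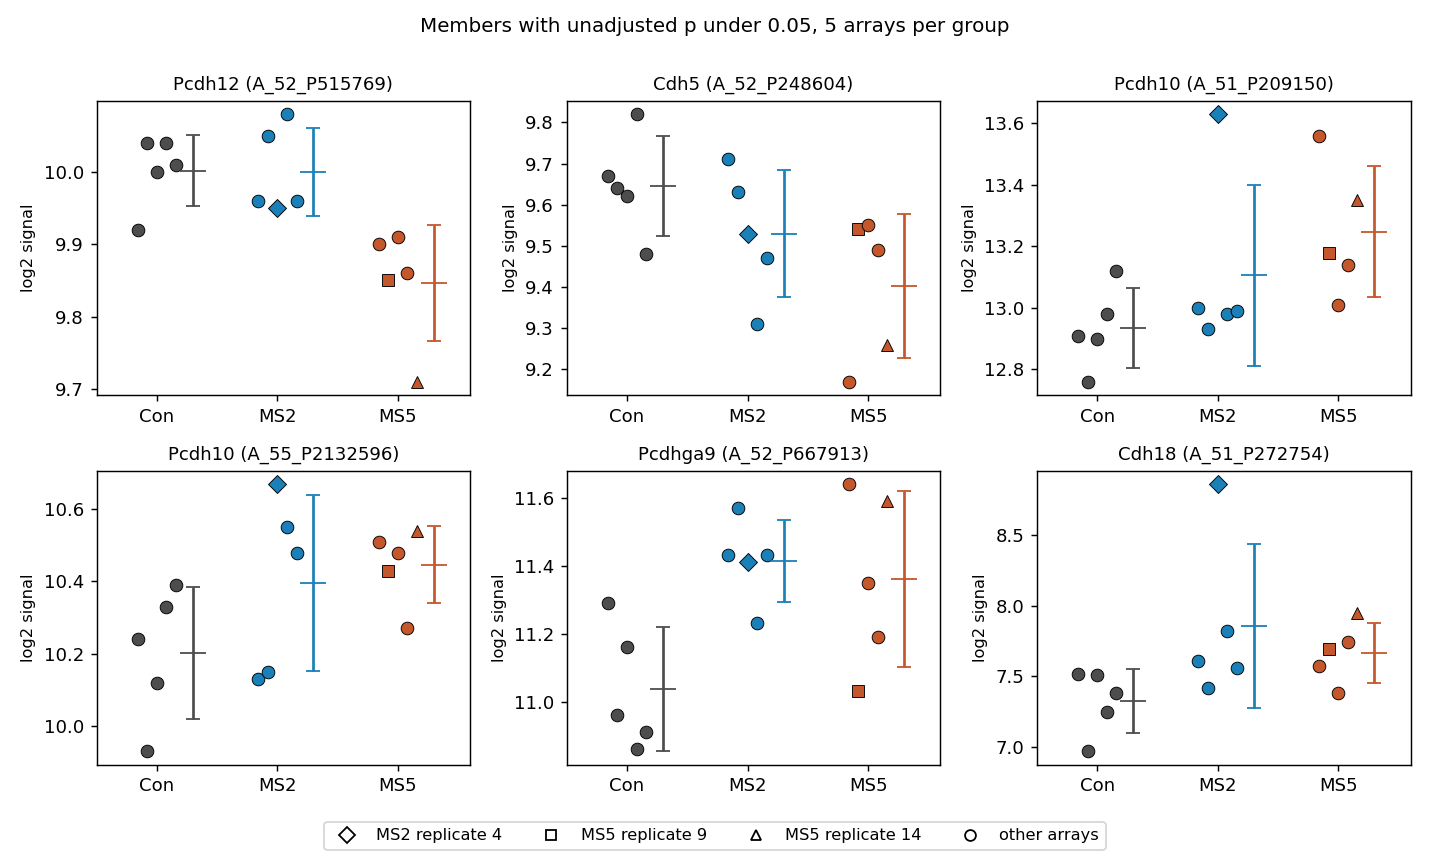
Log2 signal on each array, with group mean and SD (n = 5), for 6 of the member probesets with an unadjusted p under 0.05 in a comparison with Con. The MS5 arrays of Pcdh12 lie below all others, and 4 of 5 MS5 arrays of each Pcdh10 probeset lie above all Con arrays.

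The clustered protocadherins all lie on chromosome 18. Of 9 alpha, 22 beta and 7 gamma probesets, 0 were called at the 1.5-fold threshold in any comparison. Over all probesets 0.0233% were called in MS2 versus Con, 0.228% in MS5 versus Con and 0.129% in MS5 versus MS2. With shares this small, 0 calls say little about the clusters. At a p under 0.05 alone, 4.17%, 3.91% and 3.97% of all probesets passed, respectively. At a p under 0.05, MS5 versus Con had 1 alpha (Pcdha8, 0.17 ± 0.06, exact permutation p = 0.0159), 0 beta and 1 gamma probeset (Pcdhga9), both higher. MS2 versus Con had Pcdhac1 (-0.11 ± 0.05, exact permutation p = 0.0714), which was lower, and Pcdhga9, and MS5 versus MS2 had Pcdhgc5 (0.17 ± 0.07, exact permutation p = 0.0238). Pcdhac1 was not well above background on MS2 replicate 5 (6.12), its lowest MS2 array. The median change in MS5 versus Con was -0.02 for alpha, 0.05 for beta and 0.04 for gamma probesets.

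Pcdhga9 was higher in both treated groups at 1 of its probesets. The log2 signal there was 11.29, 10.96, 11.16, 10.86 and 10.91 on the Con arrays, 11.43, 11.57, 11.41, 11.23 and 11.43 on the MS2 arrays, and 11.64, 11.03, 11.35, 11.19 and 11.59 on the MS5 arrays. In MS2, 4 of 5 arrays were above every control array, and 3 of 5 were in MS5. The changes were 0.38 ± 0.12 (limma p = 0.00534, exact permutation p = 0.0159) and 0.32 ± 0.12 (limma p = 0.014, exact permutation p = 0.0556), against the same Con arrays. The other Pcdhga9 probeset, which like the first lists transcripts of several gamma genes, changed by 0.06 in MS2 and 0.02 in MS5.

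Pcdhb11 had the largest beta change, 0.58 ± 0.37 in MS5 versus Con (limma p = 0.14, exact permutation p = 0.19), and 1 array carried it. MS5 replicate 8 was 2.51 above the control mean and the other 14 arrays were between -0.29 and 0.26. The scanner software flagged 0 of its spots as outliers.

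The clustered and the other members differed most on a single array. Across all 15 arrays the SD of a probeset had a median of 0.145 for the 38 clustered probesets and 0.21 for the 52 others, and 0.14 and 0.155 without MS2 replicate 4. On that array 48.1% of the other members lay beyond 1.5-fold of the control mean (25 probesets, 22 of them higher) and 0% of the clustered ones did, where 7.56% of all probesets did. Highest there were Cdh7 (+2.31), Cdh22 (+1.75), Cdh4 (+1.65), Cdh6 (+1.57), Cdh18 (+1.54), Pcdh11x (+1.46), Pcdh18 (+1.32), Pcdh7 (+1.22) and Cdh13 (+1.13). The low ones were Pcdh20 (-1.88), Cdh9 (-1.28) and Cdh11 (-0.63). Thus the similar Cdh6 and Cdh9 probes shown above lay on opposite sides of the controls. The hippocampal neuron and hypothalamic markers of this array are given above, and their part in this pattern was not tested.

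On the other 14 arrays, 0% to 9.62% of the non-clustered members and 0% to 5.26% of the clustered ones were beyond 1.5-fold. Over all probesets it was 0.26% to 1.83% on these arrays. The most non-clustered members were on MS5 replicate 14 (5 probesets), where 1.61% of all probesets were. The 5.26% of clustered ones was on MS5 replicate 8, where 1.83% of all probesets were. Control arrays were set against the mean of the other controls.

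**Figure D4:**
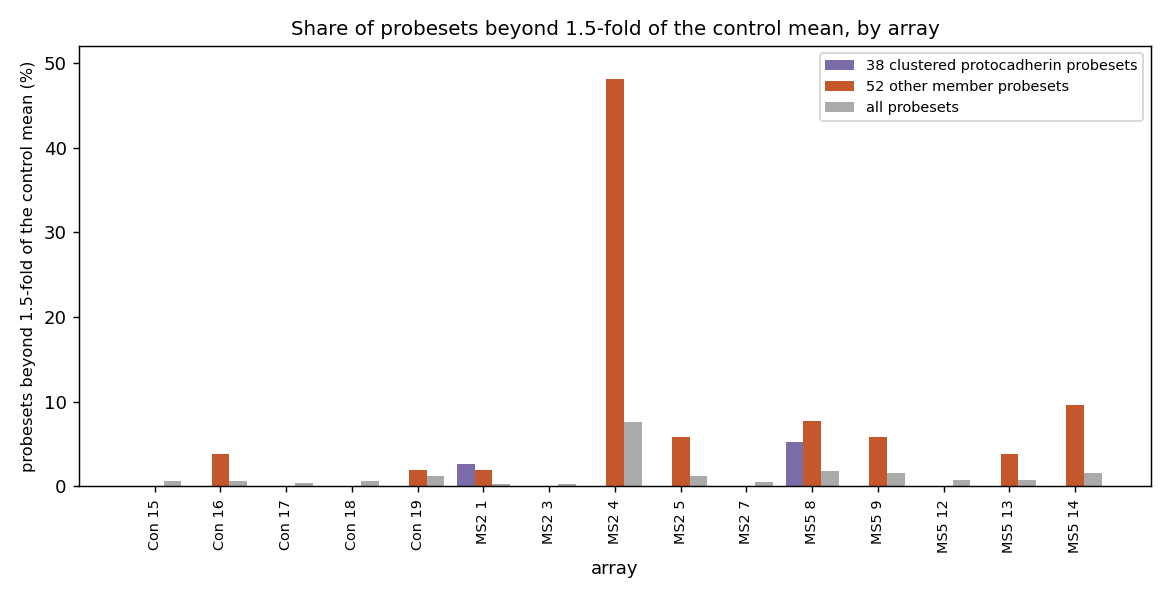
Share of probesets beyond 1.5-fold of the control mean (%, y axis) on each array, for the clustered protocadherins, the other members and all probesets. MS2 replicate 4 stands out at 48.1% of the other members, with 0% of the clustered protocadherins.

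**Figure D5:**
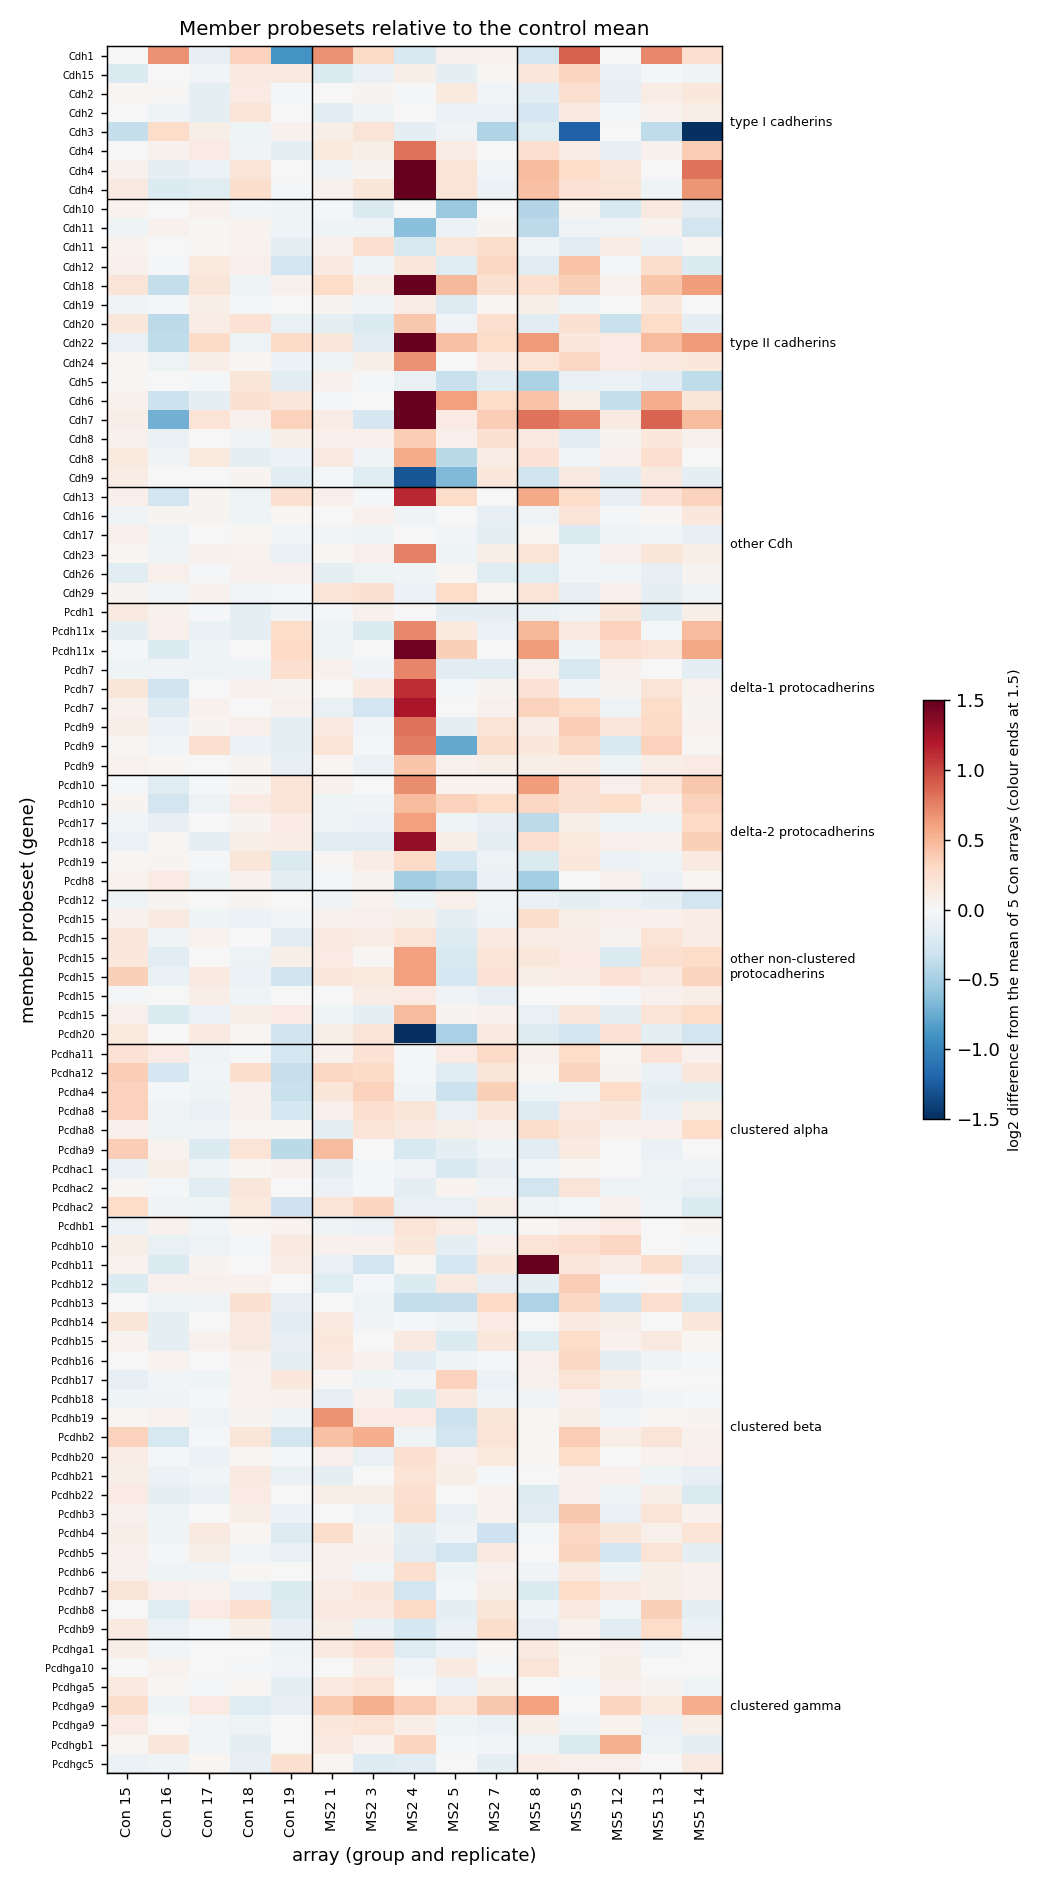
Log2 difference of the 90 member probesets (rows, by subfamily) from the mean of the 5 Con arrays on each of the 15 arrays (columns), with the colour scale ending at 1.5. The column of MS2 replicate 4 is strongly coloured among type I, type II and delta members and pale among the clustered ones.

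Leaving MS2 replicate 4 out changed the counts for the whole family. This array is in neither group of MS5 versus Con, so the changes there stayed the same and only the estimated spread moved. In MS5 versus Con, 16 members were then higher and 3 lower by p under 0.05 (2.45% and 3.47% of all probesets were), and 2 were past 1.5-fold (Cdh3 and Cdh7, 0.28% of all probesets). Against Con, MS2 had 4 members higher and 1 lower (2.25% and 1.75% of all probesets), and 0 were past 1.5-fold. Besides Cdh7 and Pcdh10, those higher in MS5 included Cdh22 (0.41 ± 0.15), Cdh18 (0.34 ± 0.12), Cdh4 (0.34 ± 0.12), Pcdh11x (0.29 ± 0.11) and Cdh13 (0.26 ± 0.12). The 3 lower in MS5 were Cdh3, Cdh5 and Pcdh12. Without MS5 replicate 9, 3 members were higher and 2 lower in MS5 versus Con and 0 were past 1.5-fold, where 1.34%, 1.92% and 0.19% of all probesets were.

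Partners and relatives of the cadherins were read in 3 lists, and 0 of their genes were past the threshold in any comparison. Of all probesets, 0.0233% were in MS2 versus Con, 0.228% in MS5 versus Con and 0.129% in MS5 versus MS2, so 0 calls say little about the lists. By p under 0.05 alone, 4.17%, 3.91% and 3.97% of all probesets passed, respectively. Of 11 catenins and linkers, 1 was higher by p under 0.05 in MS2 versus Con (Mllt4, the afadin gene, 0.12 ± 0.05) and 0 passed in MS5 versus Con. Beta-catenin (Ctnnb1) was at 0.04 ± 0.07 in MS5. Of 21 other genes of the cadherin superfamily, by p under 0.05, the atypical cadherin Fat3 was higher in MS5 versus Con (0.36 ± 0.16) and the planar polarity gene Celsr2 lower in MS2 versus Con (-0.29 ± 0.10). Of 13 regulators and effectors, Ctcf, which organizes the clustered protocadherin loci, was lower in MS2 versus Con by the same test (-0.10 ± 0.04) and at -0.03 ± 0.04 in MS5, and 0 passed in MS5 versus Con.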

How the data were processed

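The scanner files deposited by the authors hold intensity per spot from Agilent Feature Extraction 10.7.1.1 (build mm9 in the headers). The authors' table holds log2 values, which the steps here matched within 5e-09 at 55821 probes when the first spot of each was taken. Mean signals were background adjusted with normexp (offset 50), quantile normalized and put on the log2 scale. Control spots were dropped and spots of a probe were averaged, which moved member values by up to 0.233 from the authors' log2 table. The microRNA table was not used.

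Groups came from the sample labels. One limma fit of 3 groups was used (R 4.3.3, limma 3.58.1), with Benjamini-Hochberg adjustment, and exact two-sided permutation tests over 252 assignments. The number of arrays limits the precision. The fit was checked on simulated data. Gene names are those of the array, and 87 of 90 probesets matched RefSeq (GRCm38.p6) by accession.

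The members, the lists and the rule for named members were chosen with earlier results of these data known. Named were Cdh7, Cdh3, members past the threshold or with separated arrays and p under 0.05, the highest and lowest MS5 change per subfamily, and 17 reference genes. Other members were named after their values were seen. A marker or partner gene is given by its brightest probeset.

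The alternatives were array weights, the scanner's processed signal, an offset of 0, the authors' table, a background filter, the slide as a block or alone, only the groups compared and leaving out each array. Leaving out 2 arrays together and leaving out flagged spots were added after seeing the data.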

Additional observations from a re-analysis of the deposited data

Results flagged for a closer look

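Among the 93 sets of 5 arrays examined for the 31 named probesets, 15 held an array far from the other 4. The sets share the same arrays and some probesets were named for their values, so no chance rate is set beside this count. MS2 replicate 4 was that array for Cdh7 (2.31 from the control mean, log2), Cdh4 (1.65), Pcdh11x (1.46), Pcdh7 (1.22 and 0.73), Cdh13 (1.13), Pcdh10 (0.70), Cdh24 (0.68), Pcdh17 (0.62) and Cdh11 (-0.63). MS5 replicate 8 was far out for Pcdhb11 (2.51) and Pcdh8 (-0.51), and MS5 replicate 12 for Pcdhgb1 (0.53). Among the controls, Con replicate 16 was low for Cdh7 (-0.72) and Con replicate 19 high for Pcdh7 (0.25). Cdh3 differed between the treated groups, at -0.60 in MS5 versus MS2 (limma p = 0.0344, exact permutation p = 0.119), and with the slide as a block (-0.57) it was no longer past 1.5-fold.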

How the results depend on the processing

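No paired analysis was possible because the sample labels give no litter. By the paper, treated pups shared a home cage with untreated littermates, so the groups may share litters that cannot be matched here. Of the members, 0 were past the threshold in MS2 versus Con. With the processed signal 1 was (Cdh18, where 0.937% of all probesets passed), and with an offset of 0 also 1 (Cdh18, 0.413%). Within slide 2 alone 4 were (Cdh18, Cdh22, Cdh6 and Cdh9, 0.528%). In MS5 versus Con the count of 1 became 2 with array weights (Cdh3, Cdh7, 0.365% of all probesets). It became 3 with the processed signal (Cdh24, Cdh3, Pcdh15, where 1.12% of all probesets passed). Within slide 1 alone it became 2 (Cdh7, Pcdhb11, 0.702%), and with only the groups compared in the fit 2 (Cdh3, Cdh7, 0.251%). Without MS2 replicate 4 and MS5 replicate 9 together it became 0 (0.298%). In MS5 versus MS2 the count of 1 became 2 within slide 1 alone (0.697% of all probesets) and 3 within slide 2 alone (0.557%). It became 0 with only the groups compared (0.0682%) and 0 without both arrays (0.221%). With the slide as a block that count stayed 1 but was Pcdhb11, not Cdh3 (0.097% of all probesets). Leaving out each array gave 0 to 3, 0 to 2 and 0 to 1 members, respectively. The highest counts came without MS2 replicate 3 (Cdh18, Cdh22, Cdh6, 0.0611% of all probesets) and without MS2 replicate 4 (Cdh3, Cdh7, 0.28%). In MS2 versus Con, 2 were past it without MS2 replicate 1 (0.0431% of all probesets) and 1 without MS2 replicate 7 (0.0449%). Between MS5 and MS2, 0 were without MS2 replicate 1, 3 or 5 or MS5 replicate 9 (0.0593% to 0.149% of all probesets). The 1 without MS5 replicate 14 was Pcdhb11 (0.0269%). By p under 0.05 alone, the 8 members of MS5 versus Con (8.89%, against 3.91% of all probesets) became 14 with array weights (15.6% against 6.43%), 17 with only the groups compared (18.9% against 5.78%) and 17 within slide 1 (18.9% against 7.79%), and 5 to 19 as each array was left out, the 19 without MS2 replicate 4 (21.1% against 5.92%).

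The change of Cdh7 in MS5 versus Con was positive under every alternative and passed the threshold with array weights (0.61), within slide 1 (0.72) and with only the groups compared (0.61), with a range of 0.43 to 0.73 as each array was left out. Cdh3 was negative under every alternative and did not pass within slide 1 (-0.17) or without both arrays (-0.53), with a range of -0.84 to -0.44 as each array was left out. In MS2 versus Con, Cdh3 reversed within slide 1 (0.06) and ranged from -0.16 to 0.03 as each array was left out, and Cdh7 reversed within slide 1 (-0.05). In MS5 versus MS2, Cdh7 reversed within slide 2 (-0.76 ± 0.65), passed the threshold upward within slide 1 (0.76 ± 0.15) and ranged from -0.12 to 0.52 as each array was left out. The causes were not tested. Background limits the members of low signal.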
